A study of Mus musculus with 6 samples.

Results

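Testes of Abcg8 knockout mice that ate ezetimibe were compared with testes of wild-type mice on plain chow, to describe which transcripts still differed from wild-type when sterol uptake was blocked. All mice were C57BL/6J adult males of 10 to 12 weeks, each with its own array. The wild-type group had 2 mice on chow, the knockout-with-ezetimibe group had 2 mice on chow with 0.005% ezetimibe, and a further 2 knockout mice on chow without the drug are given beside them. No wild-type mice received ezetimibe, so an effect of the drug and an effect of the genotype cannot be told apart between the 2 groups compared. How the knockout was made and how long the drug was fed could not be learned from the labels. The comparison took in 15223 of the 33012 probes of the array, chosen because their deposited signal-to-noise was at least 3 (called detected here) on both arrays of wild-type or on both arrays of ezetimibe-fed knockout. The 134 probes just inside this limit, with a limiting signal-to-noise from 3.0 to 3.09, had a median raw signal of 771 and 264 in wild-type and 614 and 651 with ezetimibe. The 165 probes just outside, from 2.9 to 2.99, had medians of 695, 263, 548 and 627. Of the 15223 probes, 697 entered through wild-type alone and 1250 through ezetimibe-fed knockout alone. For these, the choice itself favours a higher value in the group that let them in.

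Abcg8 encodes sterolin-2, a half-transporter that works as a dimer with the product of Abcg5 and moves cholesterol and plant sterols out of liver and gut cells into bile and the gut lumen. Loss of either gene lets plant sterols build up in blood and tissues, which in people is the disease sitosterolemia. Ezetimibe blocks NPC1L1, the protein through which enterocytes take up sterols. In the testis, Leydig cells turn cholesterol into androgens, Sertoli cells nurse the germ cells, and resident macrophages lie next to the Leydig cells.

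The 2 genes of the transporter lie head to head on chromosome 17, and the short stretch between their annotated starts is shown because the probe of the first is the largest difference of this comparison with a gene name and the probe of the second gave no signal. Abcg8 starts at position 84683121 on the plus strand and Abcg5 at 84683011 on the minus strand, in RefSeq of build GRCm38.p6. The 109 bases between them, chr17:84683012-84683120 on the plus strand, hold the GATA-type letters AGATAA or their complement TTATCT 2 times on the plus strand, in capitals here.
Abcg8-Abcg5 intergenic: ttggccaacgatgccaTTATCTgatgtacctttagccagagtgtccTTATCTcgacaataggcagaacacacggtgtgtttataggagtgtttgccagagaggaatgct
Among 32851 RefSeq promoter windows of the same length before a start, 3.98% held either form at least once, and 0.186% held 2 or more. A match of letters is a description of the sequence and not a binding site.

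The arrays differed in brightness and in how far they stood apart. The wild-type arrays had median raw signals of 678 and 258 and the ezetimibe arrays 583 and 614, with 15371 to 16632 probes detected per array. After quantile normalisation the first principal component, with 40.9% of the variance, set wild-type replicate 2 at -48.3 and the other 5 arrays between -1.96 and 13.6. Because of that array, 822 kept probes were detected on wild-type replicate 1 and both ezetimibe arrays but not on wild-type replicate 2. Testis markers were present on all 6 arrays, among them the protamine genes Prm1 and Prm2, Ddx4 of germ cells, Wt1, Amhr2 and Clu of Sertoli cells, Cyp17a1, Cyp11a1 and Star of Leydig cells and C1qa of macrophages. The epididymal genes Lcn5, Spint4 and Adam7, the liver genes Alb and Apoa1 and the T cell gene Cd3e were detected on 0 of the 6 arrays. Other genes listed for those tissues, Lcn8, Lcn12, Rnase10 and Aqp9 of the epididymis and excurrent duct and Cd3d of T cells, were detected on all 6. The Sertoli gene Sox9 passed on 2 arrays and the endothelial gene Pecam1 on 1.

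Abcg8, the gene the knockout targets, gave more signal on the arrays labelled ezetimibe-fed knockout, against the direction of the label. Its probe (570984) read raw signals of 1715 and 569 on the arrays labelled wild-type, 20013 and 22134 on those labelled knockout on chow, and 25697 and 24767 on those labelled knockout with ezetimibe. On the normalised log2 scale these were 10.34 and 10.29, 14.04 and 14.35, and 14.42 and 14.40. The wild-type arrays lay far below all 4 others, and the ezetimibe arrays lay just above the chow-fed knockout arrays. The difference between ezetimibe-fed knockout and wild-type was 4.10 log2 units (SE 0.131), or 17.1-fold, with limma adjusted p = 0.00818. No source used here places this probe on the gene, inside or outside what was altered, so it may check nothing about the labels, and the directions below rest on them. The partner Abcg5 (probe 672227) was not detected on any of the 6 arrays, with signal-to-noise from 0.25 to 1.97. The call of Abcg8 was lost when any one of the 4 arrays of the 2 groups was left out, at adjusted p from 0.0546 to 0.135, while the difference stayed between 4.08 and 4.12.

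Of the 15223 probes, 2 were called between ezetimibe-fed knockout and wild-type at an adjusted p under 0.05, which is 0.0131%. The kept probes with 1 gene symbol stood for 7920 genes. These were Abcg8, which was higher, and probe 637213, which fell by 4.31 on the log2 scale (SE 0.192, limma adjusted p = 0.0219) and has no gene listed. Probe 637213 read 12.61 and 12.81 in wild-type, 8.04 and 8.43 in knockout on chow, and 8.56 and 8.23 in knockout with ezetimibe. It was detected on both wild-type arrays, on 0 knockout arrays on chow and on 1 ezetimibe array, so all 4 knockout arrays lay near the detection limit and the size of its difference is uncertain. It entered the comparison only through wild-type, where it is high, and is not among the probes detected on all 4 arrays, of which 1, Abcg8, was called. An unadjusted p under 0.05 was reached by 1120 probes, 573 higher and 547 lower, where 761 would be reached by chance. The typical difference was small: the median absolute difference was 0.122 against a median SE of 0.136, and 300 probes were over 1 log2 unit higher and 171 over 1 log2 unit lower. The median SD between the 2 arrays was 0.122 in wild-type and 0.0962 in ezetimibe-fed knockout.

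**Figure D1:**
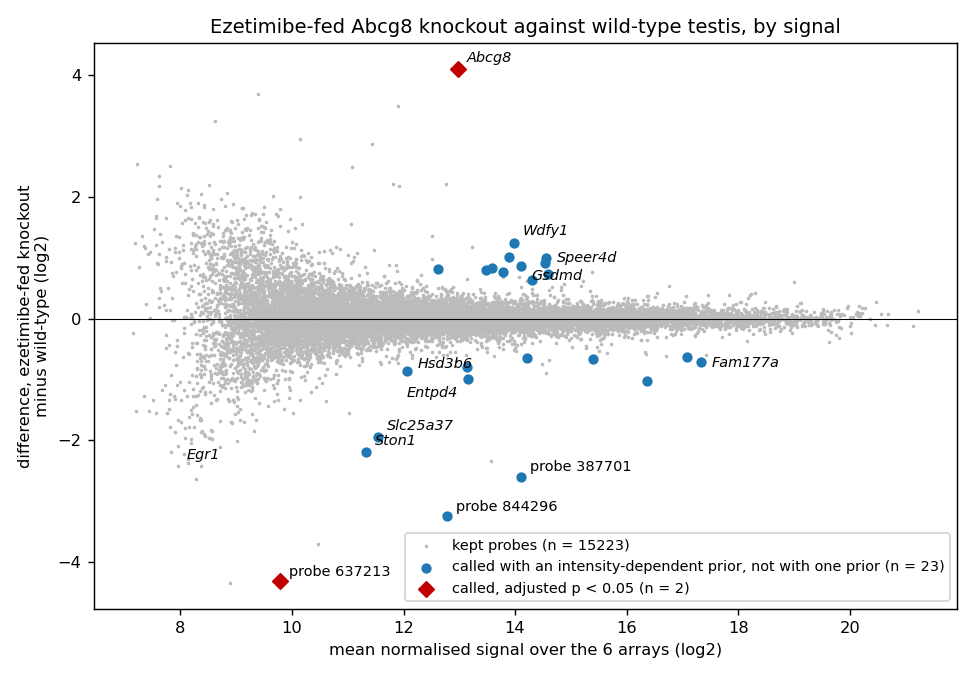
Difference between ezetimibe-fed knockout and wild-type (log2, vertical) against the mean normalised signal over the 6 arrays (log2, horizontal) for the 15223 kept probes in grey. Red diamonds mark the 2 called probes, Abcg8 at 4.10 and probe 637213 at -4.31, blue points the 23 further probes called when the prior variance follows signal and not with one prior, and the scatter of grey points is widest at the dim end.

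The prior spread that limma assigns to a probe decided how many probes were called. With one prior for all probes the count was 2. With a prior that follows signal, so that bright probes are given a smaller prior spread than dim ones, it was 25, or 0.164% of the 15223 probes, with 12 higher and 13 lower. The genes in the next paragraphs said to pass "with the signal-dependent prior" did not pass in the fit with one prior, apart from Abcg8; Ston1 also passed with one prior under median scaling (limma adjusted p = 0.0481) and with the authors' deposited values (0.0488). In 18.8% of all probes both ezetimibe arrays lay above both wild-type arrays, and in 18.5% both lay below, so separation of the 4 values is common among these probes. With 2 arrays a group, the smallest p of an exact permutation test is 0.333.

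Among genes lower than in wild-type, Ston1 had one of the larger differences. It encodes stonin 1, a protein of clathrin-dependent endocytosis. Its brighter probe (638934) read 12.65 and 12.94 in wild-type, 10.46 and 10.65 in knockout on chow, and 10.45 and 10.76 with ezetimibe. The difference from wild-type with ezetimibe was -2.19 (SE 0.168, limma adjusted p = 0.0999, and 0.000247 with the signal-dependent prior). A dimmer probe of the gene (781186), named after its values were seen, read 10.91 and 10.71 in wild-type and 9.20 and 9.74 with ezetimibe, a difference of -1.34 (limma adjusted p = 0.331). Both probes were therefore lower in the ezetimibe arrays, with no overlap of the 4 values, although neither passed with one prior. Ston1 lies on chromosome 17, as Abcg8 does. The 6 kept genes within 25 annotated genes on either side of Ston1 ranged from -0.22 for Msh6 to 0.24 for Ppp1r21.

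Entpd4, which encodes a nucleotide-hydrolysing enzyme of the Golgi and lysosomes, read 13.83 and 13.94 in wild-type, 12.71 and 12.72 in knockout on chow, and 12.86 and 12.91 with ezetimibe. The ezetimibe difference was -1.0 (SE 0.0936, limma adjusted p = 0.132, and 0.00124 with the signal-dependent prior). Slc25a37, the mitochondrial iron importer mitoferrin-1, lies on the same part of chromosome 14 with 6 annotated genes between them, and was named after its values were seen. One of its probes (505312) read 13.11 and 12.84 in wild-type, 10.53 and 10.71 in knockout on chow and 11.19 and 10.87 with ezetimibe, a difference of -1.95 (SE 0.164, limma adjusted p = 0.106, and 0.000379 with the signal-dependent prior). Its other probe (925691), with the higher mean signal, differed by -0.12 (SE 0.139, limma adjusted p = 0.872), so the 2 probes of the gene disagree. The other 3 kept genes around Entpd4 ranged from -0.21 for Pdlim2 to 0.33 for 9930012K11Rik.

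Several genes were higher with ezetimibe than in wild-type by about 1 log2 unit. Wdfy1, a phosphoinositide-binding protein of early endosomes, read 13.11 and 13.02 in wild-type, 14.47 and 14.61 in knockout on chow, and 14.48 and 14.15 with ezetimibe. Its difference was 1.25 (SE 0.143, limma adjusted p = 0.198, and 0.000663 with the signal-dependent prior). All 4 knockout arrays were above both wild-type arrays. The 6 kept genes around Wdfy1 on chromosome 1 ranged from -0.46 for Kcne4 to 0.29 for Sgpp2. Gsdmd, which encodes gasdermin D, the pore-forming protein of pyroptosis, read 13.64 and 13.53 in wild-type, 14.25 and 14.29 in knockout on chow, and 14.46 and 14.45 with ezetimibe. Its difference was 0.87 (SE 0.0932, limma adjusted p = 0.170, and 0.00144 with the signal-dependent prior). Efcab7, an EF-hand protein of the ciliary base, differed by 0.63 and passed only with the signal-dependent prior (limma adjusted p = 0.0442).

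Members of the Speer4 family, glutamate-rich proteins made during sperm formation in rodents, were higher on the ezetimibe arrays. Speer4d read 14.06 and 13.95 in wild-type, 14.66 and 14.72 in knockout on chow, and 14.99 and 15.001 with ezetimibe. Speer4b read 13.37 and 13.14, then 14.05 and 14.28, then 14.29 and 14.24, in the same order. Speer4a read 12.99 and 13.05, then 13.49 and 13.67, then 13.81 and 13.83. In each of the 3 copies the wild-type arrays were the lowest, and for Speer4d and Speer4a the ezetimibe arrays were above the chow-fed knockout arrays as well. The ezetimibe differences were 0.99 for Speer4d, 1.01 for Speer4b and 0.80 for Speer4a (limma adjusted p = 0.132, 0.285 and 0.285, and 0.000395, 0.00271 and 0.00819 with the signal-dependent prior). Speer4f1, a further copy near Speer4d on chromosome 5, differed by -0.14, so that the measured copies did not share a sign. The gene 5031410I06Rik, with 4 annotated genes between it and Speer4a, read 14.03 and 14.28 in wild-type, 14.64 and 14.86 in knockout on chow, and 14.94 and 14.83 with ezetimibe. Its difference was 0.73 (SE 0.14, limma adjusted p = 0.402, and 0.0264 with the signal-dependent prior).

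The stretches before the starts of the 3 copies that were higher are shown because these stretches are near-identical. They lie outside the annotated transcripts, which the probes read and which were not compared. The 250 bases before each annotated start come from RefSeq of build GRCm38.p6 and are written in the direction of the gene. Capitals mark aligned bases that differ from Speer4d in a pairwise alignment. The right ends of Speer4a and Speer4b, past the aligned part, stay in small letters. A base that Speer4d has and Speer4a lacks is not marked. Speer4d is at chr5:15618849-15619098 on the plus strand, Speer4a at chr5:26039506-26039755 on the minus strand and Speer4b at chr5:27501393-27501642 on the minus strand.
Speer4d: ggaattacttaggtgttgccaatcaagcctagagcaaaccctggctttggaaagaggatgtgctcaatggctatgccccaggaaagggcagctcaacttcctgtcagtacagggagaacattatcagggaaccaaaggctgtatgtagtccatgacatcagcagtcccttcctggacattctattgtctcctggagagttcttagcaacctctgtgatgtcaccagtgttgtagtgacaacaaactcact
Speer4a: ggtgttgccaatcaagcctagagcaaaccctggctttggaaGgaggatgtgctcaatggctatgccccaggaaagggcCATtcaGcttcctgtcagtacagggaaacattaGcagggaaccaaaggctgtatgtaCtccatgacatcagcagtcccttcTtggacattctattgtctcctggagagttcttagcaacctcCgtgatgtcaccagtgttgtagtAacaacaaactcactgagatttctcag
Speer4b: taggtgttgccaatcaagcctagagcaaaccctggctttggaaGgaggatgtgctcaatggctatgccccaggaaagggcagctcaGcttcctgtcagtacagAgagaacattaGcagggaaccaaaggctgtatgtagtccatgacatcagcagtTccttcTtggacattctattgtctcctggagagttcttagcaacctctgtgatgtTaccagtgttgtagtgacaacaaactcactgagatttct
Speer4a matched Speer4d at 228 of 238 aligned bases (95.8%) and Speer4b at 234 of 241 (97.1%). Signals of these copies may be shared between their probes, and how far they are was not tested.

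**Figure D2:**
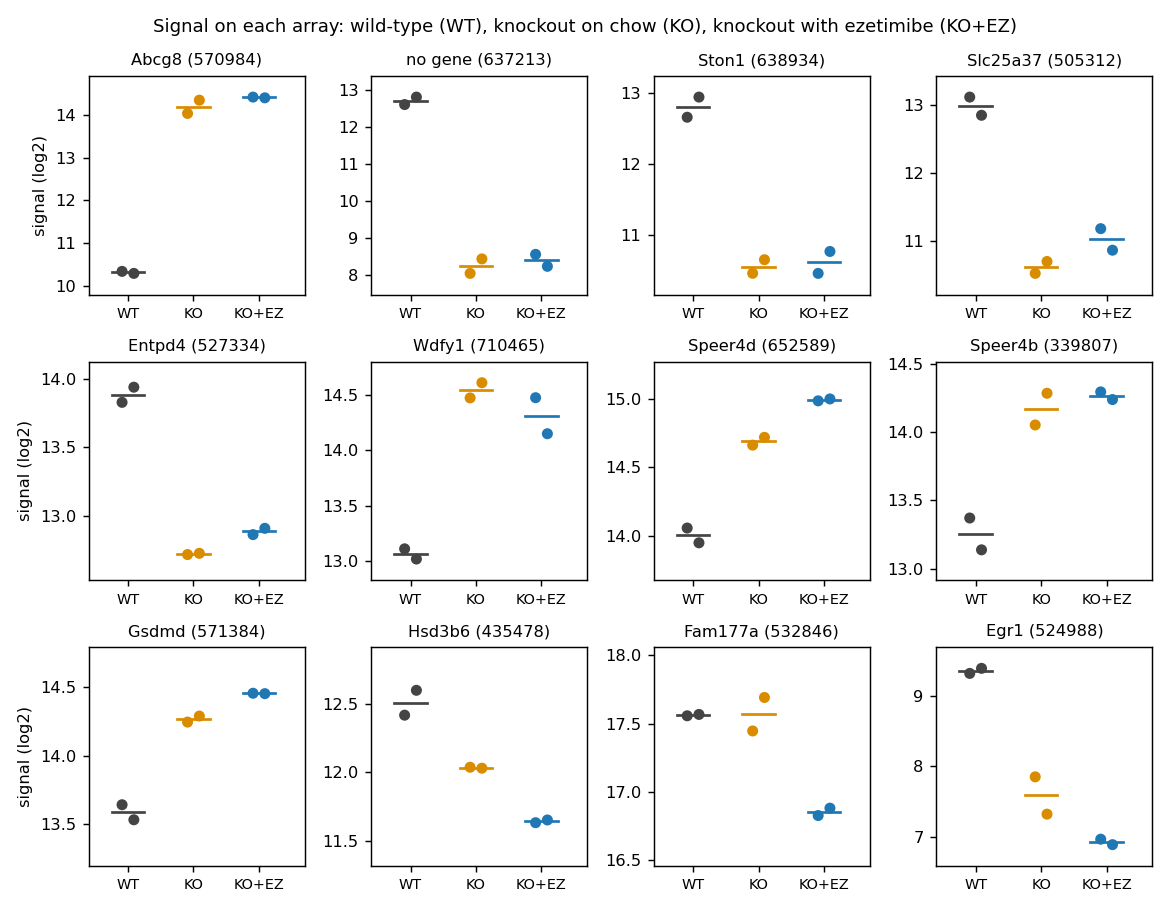
Normalised log2 signal on each array for 12 probes, with 1 point per array, a bar for the group mean, and a separate vertical scale in each panel; WT is wild-type, KO knockout on chow and KO+EZ knockout with ezetimibe. In 11 panels the chow-fed knockout arrays lie away from wild-type as the ezetimibe arrays do, whereas for Fam177a the chow-fed knockout arrays, at 17.45 and 17.69, lie around the wild-type values.

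Fam177a, a gene of little-known function, separated the ezetimibe arrays from all others. Its brighter probe (532846) read 17.56 and 17.57 in wild-type, 17.45 and 17.69 in knockout on chow, and 16.83 and 16.88 with ezetimibe. A second probe (455988), named after its values were seen, read 16.61 and 16.88, then 16.61 and 16.70, then 15.68 and 15.76, in the same order. The differences from wild-type were -0.71 and -1.02 (limma adjusted p = 0.331 and 0.215, and 0.00822 and 0.000678 with the signal-dependent prior). Srp54a, which encodes the GTPase subunit of the signal recognition particle, is the next annotated gene on chromosome 12. It read 17.21 and 17.41 in wild-type, 17.13 and 17.32 in knockout on chow, and 16.61 and 16.75 with ezetimibe, a difference of -0.63 (limma adjusted p = 0.437, and 0.0309 with the signal-dependent prior). Mouse Srp54 has near-identical copies, so the source of this signal among them is uncertain. The remaining 8 kept genes around Fam177a ranged from -0.39 for Cfl2 to 0.15 for Ppp2r3c.

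Several probes without a listed gene were of the same size or larger, and the first 2 given here were named after their values were seen. Probe 844296 read 14.45 and 14.31 in wild-type, 13.30 and 12.40 in knockout on chow, and 11.31 and 10.96 with ezetimibe, a difference of -3.25 (limma adjusted p = 0.148, and 9.57e-05 with the signal-dependent prior). Probe 387701 read 15.28 and 14.99, then 15.02 and 14.29, then 12.66 and 12.41, a difference of -2.60 (limma adjusted p = 0.163, and 0.000118 with the signal-dependent prior). For both, the chow-fed knockout arrays lay between the other groups or overlapped wild-type. Probe 714960 was not detected in wild-type and was 8.65-fold higher with ezetimibe (limma adjusted p = 0.132). Probe 719926, also not detected in wild-type, was 1.95-fold higher (limma adjusted p = 0.132). Probe 888362 was not detected with ezetimibe and was 3.48-fold lower (limma adjusted p = 0.0999). Probes 714960, 719926 and 888362 entered the comparison only through the group where they are high. In a fold of this kind, a value in a group without detection is raised to the dimmest detected signal on its array if it lies under it. Those signals were 6.55 and 7.12 in wild-type and 6.84 and 6.37 with ezetimibe. Higher values stay as read, so the fold is not a limit and its size is uncertain.

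Among dim genes, the transcription factor gene Egr1, which is induced within minutes of many stimuli, was not detected on any knockout array. It read 9.32 and 9.39 in wild-type, 7.85 and 7.32 in knockout on chow, and 6.97 and 6.89 with ezetimibe. As read, Egr1 was 5.37-fold lower than wild-type with ezetimibe (limma adjusted p = 0.0999), a fold of uncertain size without detection. Sfrp2, a secreted Wnt antagonist, was detected on both wild-type arrays and neither ezetimibe array and was 3.61-fold lower (limma adjusted p = 0.0999). Homer1, a scaffold of synapses, read 9.35 and 9.55 in wild-type, 9.16 and 9.57 in knockout on chow, and 6.95 and 7.71 with ezetimibe, 4.34-fold lower (limma adjusted p = 0.285). Its chow-fed knockout arrays lay at the wild-type level. Plekha7, of adherens junctions, was 4.27-fold lower. The 2 probes of Gemin8, of the SMN complex, disagreed: probe 628034 was 2.82-fold lower with ezetimibe and probe 306349, not detected in wild-type, 4.09-fold higher (limma adjusted p = 0.215 and 0.332). The second probe was named after its values were seen. None of these genes passed with either prior. Egr1, Sfrp2, Homer1, Plekha7 and probe 628034 entered the comparison only through wild-type, where they are high. Probe 306349 entered it only through ezetimibe-fed knockout, where it is high. Necap1, of clathrin-coated vesicles, differed by -1.01, Nxnl2, a thioredoxin-like gene, by -0.74, Tmem161a by -0.73 and Ifitm2, an interferon-induced membrane protein, by -0.60 (limma adjusted p from 0.254 to 0.331). Of these, Tmem161a was detected on 1 of the 2 ezetimibe arrays and entered the comparison only through wild-type, where it is high.

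In the other direction, the olfactory receptor gene Olfr700 was not detected in wild-type, at 8.35 and 8.16, and read 9.55 and 9.58 in knockout on chow and 9.77 and 9.70 with ezetimibe. It was 2.79-fold higher with ezetimibe (limma adjusted p = 0.0999). Olfr1404 was 2.39-fold higher, Impdh1, of guanine nucleotide synthesis, 2.52-fold and Zc2hc1a 3.1-fold (limma adjusted p = 0.314, 0.158 and 0.314). These 4 genes lacked detection on both wild-type arrays, and wild-type replicate 2 was the dimmest array. They entered the comparison only through ezetimibe-fed knockout, where they are high. Egfl7, a secreted endothelial factor, differed by 1.26 and Ccdc22, of endosomal protein recycling, by 0.77 (limma adjusted p = 0.163 and 0.331). Each was detected on 1 of the 2 wild-type arrays, so Egfl7 and Ccdc22 also entered only through ezetimibe-fed knockout.

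Sterol synthesis genes, which cells turn up when sterol falls and down when it accumulates, lay near wild-type with ezetimibe. Of 10 listed genes from acetyl-CoA units to squalene, 6 were kept, 3 above and 3 below 0, with a median difference of -0.05 beside 0.004 over all 15223 probes, and 0 were called. Mvd, mevalonate diphosphate decarboxylase, read 11.11 and 11.09 in wild-type, 11.02 and 10.97 in knockout on chow, and 10.61 and 10.60 with ezetimibe, a difference of -0.50 (SE 0.0876, limma adjusted p = 0.347). The ezetimibe arrays were the lowest of the 6 for this gene. Hmgcs1, the HMG-CoA synthase, read 15.37 and 14.84 in wild-type and 14.71 and 15.28 with ezetimibe, so the groups overlapped. The remaining differences were -0.15 for Ggps1, 0.16 for Pmvk, 0.11 for Fdft1 and 0.01 for Idi1. Of 12 listed genes after squalene, 8 were kept, 1 above and 7 below 0, with a median of -0.12 and 0 called. In each of these 8 genes the wild-type and ezetimibe values overlapped. Among all probes, 18.8% lay apart above wild-type and 18.5% below. Relative to their means over the 6 arrays, the 8 genes averaged 0.15 and 0.11 in wild-type and -0.14 and -0.10 in knockout on chow. With ezetimibe the average was -0.20 on replicate 1 and 0.17 on replicate 2. They included Hsd17b7 at -0.45, Tm7sf2 at -0.20, Msmo1 at -0.19, Sc5d at -0.18, Ebp at -0.05 and Cyp51 at -0.05. For Tm7sf2, a sterol reductase, the chow-fed knockout arrays read 12.67 and 12.71, below 13.20 and 13.29 in wild-type, with 12.88 and 13.20 on the ezetimibe arrays.

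The sensors of the pathway and sterol handling genes showed the same small range. Of 14 listed genes of sterol sensing and lipoprotein uptake, 6 were kept and 0 called, with a median of -0.19. Srebf1, a transcription factor that drives lipid synthesis, differed by -0.26, Mbtps2, a protease that activates it, by -0.42, Scap, its escort, by -0.13, Insig1 and Insig2, which hold it in the endoplasmic reticulum, by -0.25 and 0.04, and the lipoprotein receptor Scarb1 by 0.17. Mbtps2, the lowest of the 6, was detected on 1 of the 2 ezetimibe arrays and entered the comparison only through wild-type, where it is high. Insig1 read 12.06 and 12.72 on the 2 ezetimibe arrays, beside 12.81 and 12.48 in wild-type. Of 14 listed LXR targets and sterol exporters, 7 were kept, with a median of 0.005, and Abcg8 was the one called. Apoe, a lipoprotein of cholesterol transport made by macrophages among other cells, read 15.51 and 15.17 in wild-type, 15.64 and 15.52 in knockout on chow, and 14.88 and 14.84 with ezetimibe, a difference of -0.48 (SE 0.143, limma adjusted p = 0.597). Apoc1 differed by -0.35, Pltp by -0.10, Lpcat3 by 0.05 and the receptor gene Nr1h3 by 0.01. The cholesterol exporter gene Abca1 was not detected on any array. Of 19 listed genes of sterol transfer and ester handling, 10 were kept, 4 above and 6 below 0, with a median of -0.02 and 0 called. They ranged from -0.18 for Star to 0.44 for Plin1, which was 0.08 without wild-type replicate 2 and 0.79 without replicate 1, with Scp2 at -0.16, Npc2 at -0.08, Osbpl2 at -0.08 and Gramd1b at 0.16. Of 10 listed oxysterol and bile acid enzymes 4 were kept, with Cyp27a1 at -0.27, Cyp39a1 at -0.09, Cyp46a1 at 0.07 and Slc27a5 at 0.23, and 0 called. Slc27a5 was detected on 1 of the 2 wild-type arrays and entered the comparison only through ezetimibe-fed knockout.

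Fatty acid genes lay mostly below wild-type. Of 17 listed genes of fatty acid synthesis and desaturation 10 were kept, 2 above and 8 below 0, with a median of -0.23 and 0 called. In 6 of the 10 both ezetimibe arrays were below both wild-type arrays, where 18.5% of all probes were so. Elovl2, an elongase of long polyunsaturated fatty acids, read 10.10 and 9.81 in wild-type, 9.44 and 9.08 in knockout on chow, and 9.12 and 8.68 with ezetimibe. It was not detected with ezetimibe, was 2.07-fold lower as read (limma adjusted p = 0.451) and entered the comparison only through wild-type. The desaturase Scd2 differed by -0.30, the desaturase Fads2 by -0.31 and the elongase Elovl5 by -0.27. Without wild-type replicate 1 the median of the list was -0.12.

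Hsd3b6, which encodes the 3-beta-hydroxysteroid dehydrogenase of adult mouse Leydig cells, was the steroidogenic gene with the lowest p. It read 12.42 and 12.60 in wild-type, 12.04 and 12.03 in knockout on chow, and 11.63 and 11.65 with ezetimibe. The difference was -0.87 (SE 0.103, limma adjusted p = 0.198, and 0.0234 with the signal-dependent prior). The 3 groups did not overlap, with the ezetimibe arrays the lowest. Hsd3b1, a paralog on the same chromosome, differed by -0.01. Hsd17b3, which makes testosterone from androstenedione, read 13.04 and 13.01 in wild-type, 13.01 and 12.98 in knockout on chow, and 12.68 and 12.27 with ezetimibe, a difference of -0.55 (SE 0.155, limma adjusted p = 0.577). For this gene the chow-fed knockout arrays lay at the wild-type level.

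Of 19 listed Leydig cell genes 11 were kept, 2 above and 9 below 0, with a median of -0.18 and 0 called with one prior. In 5 of the 11 both ezetimibe arrays were below both wild-type arrays, where 18.5% of all probes were so. Star, which carries cholesterol into mitochondria, differed by -0.18, Tspo by -0.25, Cyp11a1, which cuts the cholesterol side chain, by -0.23 and Ptgds, a prostaglandin synthase, by -0.31 (limma adjusted p from 0.686 to 0.762). Cyp11a1 read 14.61 and 14.54 in knockout on chow, above 14.25 and 14.00 in wild-type and 13.79 and 14.01 with ezetimibe. In whole testis, fewer cells of a type and less RNA per cell cannot be told apart.

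Macrophage genes were all below wild-type in sign. Of 17 listed genes 9 were kept, 0 above and 9 below 0, with a median of -0.19 and 0 called with either prior. In 5 of the 9 both ezetimibe arrays lay below both wild-type arrays, where 18.5% of all probes did. C1qc, a chain of complement C1q, read 12.85 and 12.86 in wild-type, 12.73 and 12.59 in knockout on chow, and 12.16 and 12.28 with ezetimibe, a difference of -0.63 (SE 0.102, limma adjusted p = 0.331, and 0.0838 with the signal-dependent prior). C1qa read 14.26 and 14.12, then 14.11 and 14.10, then 13.65 and 13.75, a difference of -0.49 (SE 0.101, limma adjusted p = 0.447). For both chains the ezetimibe arrays were the lowest of the 6. The third chain, C1qb, differed by only -0.12 with overlapping groups. The lysosomal protease Ctss differed by -0.44, the lysozyme Lyz1 by -0.19, and the scavenger receptor Cd163, not detected on any knockout array, was 1.96-fold lower as read (limma adjusted p = 0.501, 0.764 and 0.623). Cd163 entered the comparison only through wild-type. Without wild-type replicate 1 the median of the list was -0.11, and without replicate 2 it was -0.27.

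Antigen presentation genes lay on both sides. Of 13 listed genes 7 were kept, 2 above and 5 below 0, with a median of -0.28 and 0 called. Both ezetimibe arrays lay below both wild-type arrays in 4 of the 7, where 18.5% of all probes did. They lay above in 1, where 18.8% did. H2-Aa read 10.91 and 11.003 in wild-type, 10.50 and 10.56 in knockout on chow, and 10.57 and 10.64 with ezetimibe, a difference of -0.35 (limma adjusted p = 0.564). H2-Eb1 differed by -0.44 and B2m by -0.28, and H2-Ab1, the partner chain of H2-Aa, by 0.27. The 2 chains of one class II molecule therefore had opposite signs. Without wild-type replicate 2 the median was -0.14. Interferon-induced genes gave 3 kept of 18 listed, Bst2 at -0.26, Isg15 at -0.25 and Oasl2 at 0.05, and 0 called. The lymphocyte list gave 2 kept of 15, Nkg7 at 0.30 and Cd3d at 0.16.

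**Figure D3:**
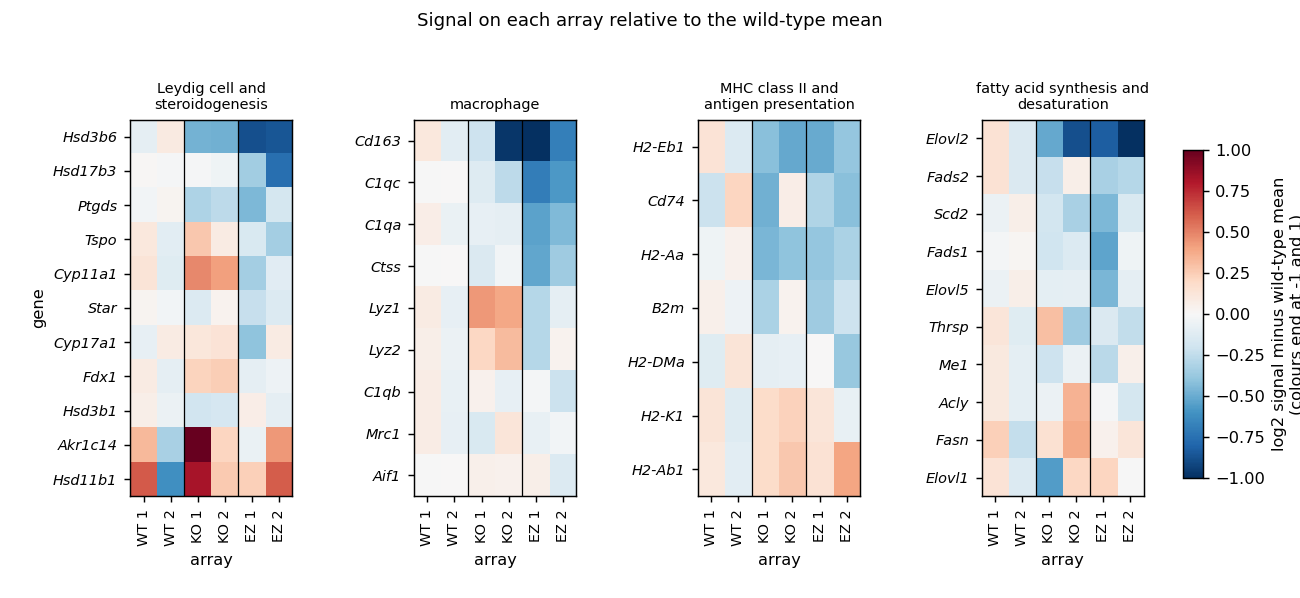
Signal on each array as the log2 difference from the wild-type mean, for the kept members of 4 lists, with wild-type (WT), knockout on chow (KO) and knockout with ezetimibe (EZ) arrays in columns and colours ending at -1 and 1. Blue is lower than wild-type; Hsd3b6, C1qc, C1qa, Ctss and Hsd17b3 are bluest on the 2 ezetimibe arrays, while H2-Aa and H2-Eb1 are about as blue on the chow-fed knockout arrays.

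Signals of blood cell genes differed between arrays and are given beside the macrophage and Leydig values. Blood content itself was not measured. The alpha globin gene Hba-a1 read 15.93 and 15.91 in wild-type, 18.29 and 17.26 in knockout on chow, and 14.99 and 15.69 with ezetimibe. The ezetimibe arrays were the lowest and the chow-fed knockout arrays the highest, and the difference from wild-type of -0.58 did not pass (SE 0.4, limma adjusted p = 0.786). Of 12 listed blood cell genes 3 were kept, all below 0, with a median of -0.40. Alas2, of heme synthesis, differed by -0.17 with overlapping groups, and the embryonic globin gene Hba-x by -0.40. Detected on 1 of the 2 ezetimibe arrays, Hba-x entered the comparison only through wild-type, which favours a value below 0. The median of the 3 genes is its value. Hba-x was dim and read 8.59 and 9.34 in wild-type and 7.24 and 7.47 in knockout on chow, where it was not detected. It thus ran opposite to Hba-a1 there, and the list mean for knockout on chow joins the 2 directions. As the mean of the 3 genes relative to their own means over the 6 arrays, the blood list read 0.02 and 0.12 in wild-type, 0.38 and 0.10 in knockout on chow, and -0.38 and -0.24 with ezetimibe. The part of blood in the macrophage and Leydig values was not tested.

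Sertoli and peritubular cells showed differences of mixed size. Of 26 listed Sertoli genes 16 were kept, 6 above and 10 below 0, with a median of -0.05 and 0 called. Both ezetimibe arrays lay below both wild-type arrays in 7 of the 16, where 18.5% of all probes did. They lay above in 1, where 18.8% did. Dhh, the signal from Sertoli to Leydig cells, read 9.36 and 7.32 in wild-type, 10.48 and 10.04 in knockout on chow, and 9.69 and 9.83 with ezetimibe, a difference of 1.42 (SE 0.662, limma adjusted p = 0.707) that came from wild-type replicate 2, where it was not detected. Dhh thus entered the comparison only through ezetimibe-fed knockout, where it is high. The transferrin gene Trf differed by -0.77, the protease Ctsl by -0.20 and Vim by -0.17. Of 9 listed peritubular and smooth muscle genes 6 were kept, with a median of -0.12 and 0 called: Lmod1 differed by -0.29, Myh11 by -0.19, Tagln by -0.16 and Tpm2 by -0.09. Both ezetimibe arrays lay below both wild-type arrays in 4 of the 6, where 18.5% of all probes did, and above in 0. Of 17 genes of the cell junctions that seal the tubule, 12 were kept and 0 called, among them Cldn3 at -0.36, Ocln at -0.42, Tjp1 at -0.29 and Espn at -0.14. Ocln was detected on 1 of the 2 ezetimibe arrays and entered the comparison only through wild-type, where it is high.

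Matrix and vessel genes had no common direction. Of 22 listed matrix genes 14 were kept, 5 above and 9 below 0, with a median of -0.06 and 0 called. Col1a1, of fibrillar collagen, read 10.74 and 10.06 in wild-type, 11.49 and 11.47 in knockout on chow, and 10.88 and 10.67 with ezetimibe, so that the chow-fed knockout arrays were the highest and the ezetimibe arrays overlapped wild-type. Col4a2, of basement membrane, read 12.80 and 10.58 in wild-type and 13.02 and 13.06 with ezetimibe, and its difference of 1.35 (limma adjusted p = 0.737) rested on wild-type replicate 2. Col6a2 differed by 0.40 and Mgp by -0.20. Of 14 listed endothelial genes 5 were kept, with Ly6c1 at -0.31, Cldn5 at -0.15 and Eng at -0.12 beside Egfl7 above, and 0 called.

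Germ cell lists from meiosis on had medians near 0, and the median of the spermatogonial list lay above them. Of 24 listed spermatogonial genes 12 were kept, 8 above and 4 below 0, with a median of 0.13 and 0 called; without wild-type replicate 2 the median was 0.04. Sohlh1, a transcription factor of differentiating spermatogonia, read 9.51 and 8.77 in wild-type and 10.15 and 11.12 with ezetimibe (difference 1.49, limma adjusted p = 0.564), Kit differed by 0.68, Neurog3 by 0.24 and Dazl by -0.24. Sohlh1 and Kit were each detected on 1 of the 2 wild-type arrays, so they entered the comparison only through ezetimibe-fed knockout, where they are high. In 5 of the 12 spermatogonial genes both ezetimibe arrays lay above both wild-type arrays, where 18.8% of all probes did. Sohlh1 and Kit are among these 5, so the count rests partly on the choice of probes. Of the 12 genes, 10 were detected on all 4 arrays. In 1 they lay below, where 18.5% did. Of 32 meiotic genes 22 were kept, 12 above and 10 below 0, with a median of 0.01, and Tex15 at -0.31, Tex14 at 0.26, Rec8 at -0.18 and Hormad1 at 0.14. Of 31 round spermatid genes 24 were kept, 12 above and 12 below 0, with a median of 0.003, and Spata16 at 0.25, Tssk3 at -0.25, Sun5 at -0.25 and Adam5 at 0.18. Of 28 elongating spermatid genes 22 were kept, 9 above and 13 below 0, with a median of -0.01, and Prm2 at -0.26, Prm3 at -0.17, Pgam2 at 0.16 and Fscn3 at 0.14. None of these germ cell genes was called.

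**Figure D4:**
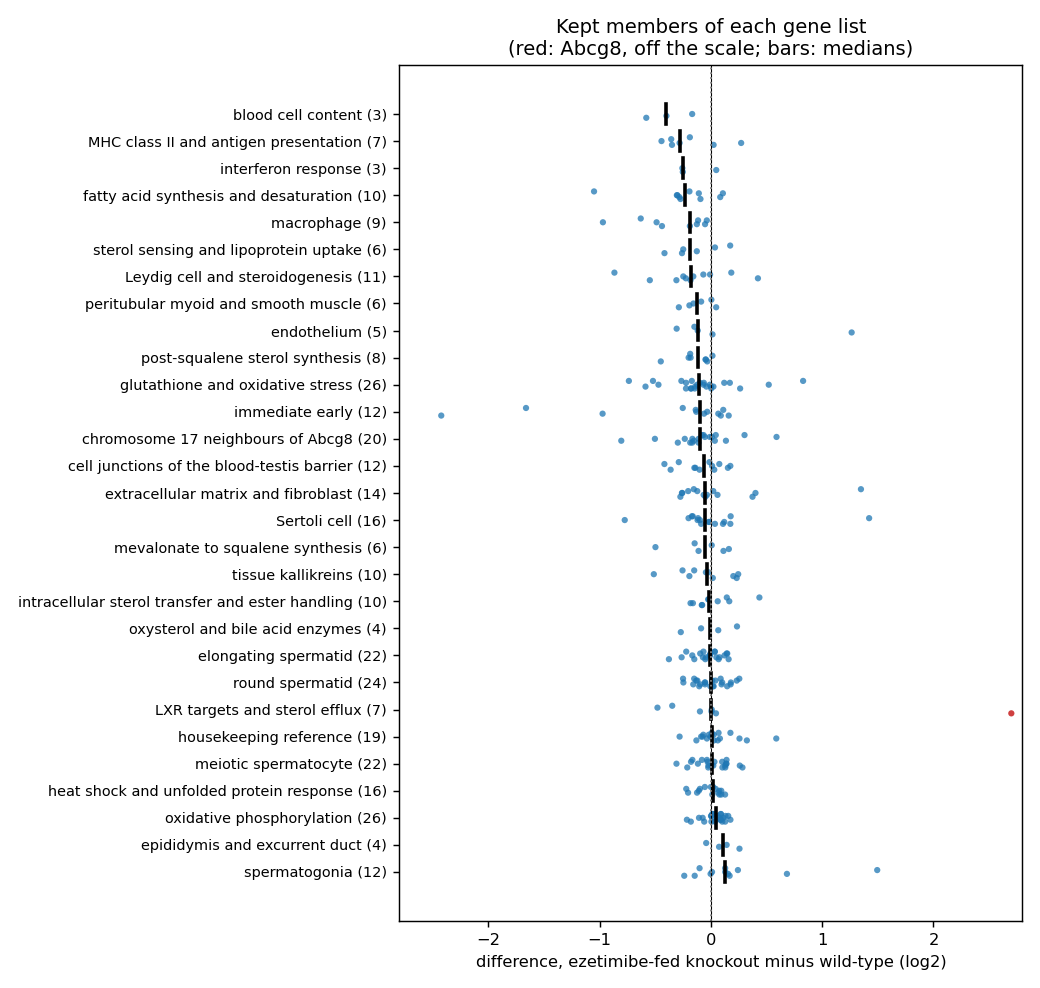
Difference between ezetimibe-fed knockout and wild-type (log2, horizontal) for each kept member of the gene lists with 3 or more kept members, with the number kept in brackets, black bars for list medians and a dotted line for the median of all probes. List medians run from -0.40 for blood cell content to 0.13 for spermatogonia, and Abcg8, at 4.10, lies off the scale.

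Redox genes were mostly below wild-type with exceptions in both directions. Of 37 listed genes of glutathione and oxidative stress 26 were kept, 8 above and 18 below 0, with a median of -0.11 and 0 called. In 13 of the 26 both ezetimibe arrays lay below both wild-type arrays, where 18.5% of all probes did, and in 4 they lay above, where 18.8% did. Gsta3, a glutathione transferase that also acts on steroid intermediates, read 15.67 and 16.02 in wild-type, 15.25 and 15.18 in knockout on chow, and 15.33 and 15.42 with ezetimibe, a difference of -0.47 (SE 0.143, limma adjusted p = 0.604). The secreted peroxidase Gpx3 differed by -0.59 and the extracellular dismutase Sod3 by -0.27. Gpx3 was detected on 1 of the 2 ezetimibe arrays and entered the comparison only through wild-type, where it is high. Thioredoxin, Txn1, read 10.80 and 11.01 in wild-type, 11.37 and 11.24 in knockout on chow, and 11.48 and 11.36 with ezetimibe, a difference of 0.52 (limma adjusted p = 0.492). For Txn1 and Gsta3 all 4 knockout arrays lay on one side of wild-type.

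Of 20 immediate early genes, 12 were kept, 4 above and 8 below 0, with a median of -0.10 and 0 called. Beside Egr1, Zfp36, which destabilises inflammatory transcripts, read 10.20 and 10.43 in wild-type and 7.96 and 9.35 with ezetimibe, a difference of -1.66 (SE 0.474, limma adjusted p = 0.583) that was -0.96 without ezetimibe replicate 1 and -2.37 without replicate 2. Nr4a1 differed by -0.97 and Ier2 by -0.25. In 5 of the 12 both ezetimibe arrays lay below both wild-type arrays, where 18.5% of all probes did, and in 0 above. Egr1, Zfp36 and Nr4a1 are among these 5 and entered the comparison only through wild-type, where they are high. The count therefore rests partly on the choice of probes, and 7 of the 12 were detected on all 4 arrays. Of 24 heat shock and unfolded protein genes 16 were kept and 0 called, with a median of 0.02, Hsp90b1 at -0.22, Xbp1 at -0.21, Pdia4 at -0.11 and Hspa1l at 0.13. Of 14 tissue kallikreins, near-identical proteases in the mouse whose probes may share signal, 10 were kept and 0 called, with a median of -0.03. Klk1b24 read 14.09 and 13.80 in wild-type, 14.56 and 14.52 in knockout on chow, and 13.30 and 13.57 with ezetimibe, a difference of -0.51 (limma adjusted p = 0.597). Klk1b9 differed by -0.26, Klk1b21 by -0.19 and Klk1 by 0.23.

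Of the 20 kept genes nearest Abcg8 on chromosome 17, 10 on each side, 6 were above and 14 below 0, with a median of -0.10 and 0 called. Slc3a1, an amino acid transporter subunit, read 9.93 and 10.39 in wild-type and 9.89 and 8.82 with ezetimibe, and its difference of -0.81 was -0.27 without ezetimibe replicate 2 and -1.33 without replicate 1. Srbd1 differed by -0.30, Pkdcc by -0.19 and Atp6v1e2 by -0.17. In 7 of the 20 both ezetimibe arrays were below both wild-type arrays, where 18.5% of all probes were.

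The last lists gave the size of difference among housekeeping genes, oxidative phosphorylation genes and genes of the excurrent duct. Of 21 housekeeping genes 19 were kept and 0 called, with a median of 0.009 and a range from -0.28 for B2m to 0.59 for Gusb, and Pgk1 at 0.32, Rpl13a at 0.26 and Sdha at 0.18. Of 31 oxidative phosphorylation genes 26 were kept and 0 called, 21 above and 5 below 0, with a median of 0.05, Cox8a at -0.22, Cox6b2 at -0.18 and Ndufv1 at 0.13. Of 18 genes of the epididymis and excurrent duct 4 were kept and 0 called, with Lcn8 at 0.26, Rnase10 at 0.14, Lcn12 at 0.07 and Aqp9 at -0.04.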

How the data were processed

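Each mouse's testis RNA, with a digoxigenin label, went onto 1 single-colour array, per the labels. For each probe and array the deposited raw table holds an intensity and a score named signal-to-noise, per the file headers; a second deposited table gives the authors' processed intensity values and served as an alternative. No source used here names the scanner software, and 0 per-sample columns were left unused. Intensities were taken as log2, quantile-normalised between the 6 arrays and fitted with limma 3.58.1 (lmFit, eBayes) in R 4.3.3, 1 mean per group, so that the chow-fed knockout arrays added to the normalisation and to the estimate of spread. P-values were adjusted by Benjamini-Hochberg over all 15223 probes, with a threshold of 0.05. The procedure was tested on simulated data. Separate titles name each mouse, and nothing says whether arrays shared a batch.

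Gene names came from the platform annotation (14411 probes with 1 symbol, 247 with several, 18354 with none) and a RefSeq table of GRCm38.p6, which changed 0 symbols; a gene is given by its brightest probe. Of the kept probes 8138 stood for 7920 genes. Alternatives were median scaling, the authors' values, normexp with an offset of 50, other filters, other priors, array weights, the 4 arrays alone and each array left out. The members, the 30 gene lists and the rule for naming were chosen with earlier results of these data known. The rule named Abcg8 and Abcg5, then 12 genes a direction by lowest p among those with no overlap and detection on both arrays of the higher group, up to 2 probes a direction without a gene, up to 15 genes a direction called with an intensity-dependent prior, and up to 4 members per list (6 for sterol, Leydig and macrophage lists). Precision is limited by the number of arrays, with a median SE of 0.136 for a difference.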

Additional observations from a re-analysis of the deposited data

How the results depend on the processing

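The count of called probes was 2 and moved with most settings. It was 4 with the authors' values and with median scaling (2 higher and 2 lower in each), the additions being Ston1 (limma adjusted p = 0.0488 and 0.0481) and probe 895890. It was 1 with probes detected on all 4 arrays and with only the 4 arrays fitted, each with 0 lower, 0 without a filter on dim probes (0 higher, 0 lower, 1896 at an unadjusted p under 0.05), and 25 (12 higher, 13 lower) with an intensity-dependent prior. Leaving out 1 array gave 0 to 4 called, 0 to 4 higher and 0 to 2 lower. It was 4 without ezetimibe replicate 1 and 2 without wild-type replicate 1, none of them Abcg8 or probe 637213, and 0 without ezetimibe replicate 2 or wild-type replicate 2 (1093 and 1030 at an unadjusted p under 0.05). Normexp, a robust prior and the filter over any of the 3 groups kept both probes. Abcg8 differed by 4.10 without a filter (limma adjusted p = 0.195) and by 4.08 to 4.12 with 1 array left out. The number of arrays and the floor of dim signals limit what can be called, and differences that reach the floor are compressed. No paired analysis was possible because the groups share no replicate numbers in the labels.

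The medians of 19 of the 30 gene lists moved under some alternative, in 69 of 480 values, and 14 medians took both signs, among them those of mevalonate to squalene synthesis (-0.09 to 0.09), post-squalene synthesis (-0.25 to 0.06) and kallikreins (-0.14 to 0.07). Leaving out 1 array moved 82 of the 160 named genes and probes other than Abcg8 by over 1.5 times or changed their sign. Among 161 named genes and probes, 21 changed sign under some alternative, each with an uncalled difference; the causes were not tested. With 1 array left out, the difference ranged from -0.398 to 0.174 for Hmgcs1, -0.0382 to 0.0507 for Idi1, -0.966 to 0.0588 for Hsd17b7, -0.44 to 0.0654 for Msmo1, -0.524 to 0.16 for Sc5d, -0.111 to 0.0124 for Ebp, -0.0994 to 0.00788 for Cyp51, -0.58 to 0.0801 for Insig1, -0.0813 to 0.426 for Scarb1, -0.0418 to 0.115 for Insig2, -0.0461 to 0.136 for Lpcat3, -0.384 to 0.184 for Pltp, -0.00496 to 0.0184 for Nr1h3, -0.18 to 0.0134 for Osbpl2, -0.259 to 0.0821 for Cyp39a1, -0.139 to 0.739 for Nkg7, -0.381 to 0.0423 for Alas2, -0.542 to 0.00541 for Prm2, -0.452 to 0.0414 for Xbp1 and -0.333 to 0.432 for Oasl2. With the authors' values and with median scaling (which puts the median difference of all probes at 0.06 in place of 0.004), Ebp was 0.0055 and 0.0056, Cyp51 0.0133 and 0.0138, and Aqp9 0.0122 and 0.0125.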
